A study of Mus musculus with 30 samples.

Results

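Macrophages were read in mouse forelimb buds through 10 genes, *Csf1r*, *Cx3cr1*, *Adgre1*, *Mrc1*, *C1qa*, *C1qb*, *C1qc*, *Ptprc*, *Spi1* and *Tyrobp*, which were chosen by name as markers of the lineage, out of 20569 protein-coding genes in the count table. All 10 were found in both deposited tables and all 10 passed the filter on low counts in every comparison. Pregnant females of the WT Swiss Albino strain were injected at E10.5 with DMSO or with C59, and forelimb buds of their embryos were collected 1, 6, 12, 18 or 24 h later. C59 blocks porcupine, the enzyme that adds a lipid to WNT proteins and thereby allows their secretion, and DMSO is its solvent. This gave 10 groups of 3 libraries each, 30 libraries in all, and strain, injection stage and tissue were the same in all groups. Each replicate was a pair of forelimb buds of 1 embryo, with embryos of both sexes and no sorting of cells, so all cell types of the bud entered every library. The question was how these genes behaved while WNT signaling was lowered and while it returned.

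Embryonic macrophages arise from early progenitors of the yolk sac and fetal liver, reach the tissues with the circulation, divide there, and take up dying cells as the embryo is remodelled. The receptor encoded by *Csf1r* receives the growth factors CSF1 and IL34 and keeps these cells alive, and PU.1, encoded by *Spi1*, is the transcription factor on which the lineage depends. *Cx3cr1* is the fractalkine receptor, *Adgre1* encodes the surface protein F4/80, *Mrc1* the mannose receptor, and *Tyrobp* the signaling adaptor DAP12. *C1qa*, *C1qb* and *C1qc* encode the 3 chains of C1q, the recognition part of the first complement component, and in tissues they are made largely by macrophages. *Ptprc* encodes CD45, which nearly all white blood cells carry.

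RefSeq promoter windows of 300 bases, from 250 before to 50 after the start site (GRCm38.p6), were used for 5 of the 10 genes. *Csf1r* was not among these 5, so its promoter was not examined. PU.1 and its relatives bind DNA around a GGAA core, so the windows were searched on both strands for AGGAAGT, whose other strand reads ACTTCCT, letters chosen after the windows had been searched. The windows of *C1qb*, *C1qc*, *Mrc1* and *Ptprc* held the motif and that of *Cx3cr1* did not. Of all 27025 genes with a window 10.7% held it. Because the letters were chosen on the windows of these genes, the comparison with that share cannot show enrichment. Stretches of 3 genes before the start site are printed 5′ to 3′ on the gene's strand, with the motif in capitals, because they set a gene that rose after C59 (*C1qb*) beside others whose difference did not pass the test (*Mrc1* and *Ptprc*). They are *C1qb* at chr4:136886201-136886450 (minus strand), *Mrc1* at chr2:14229164-14229391 (plus strand) and *Ptprc* at chr1:138175307-138175555 (minus strand).
C1qb: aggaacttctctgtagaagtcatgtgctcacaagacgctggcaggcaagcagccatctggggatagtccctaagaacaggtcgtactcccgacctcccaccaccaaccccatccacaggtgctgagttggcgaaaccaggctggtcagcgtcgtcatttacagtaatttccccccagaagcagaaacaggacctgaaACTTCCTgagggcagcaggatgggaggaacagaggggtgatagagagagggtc
Mrc1: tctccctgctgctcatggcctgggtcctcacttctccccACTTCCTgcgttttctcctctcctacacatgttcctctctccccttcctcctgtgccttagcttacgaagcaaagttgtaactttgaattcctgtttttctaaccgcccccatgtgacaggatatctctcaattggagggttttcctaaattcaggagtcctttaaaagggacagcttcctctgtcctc
Ptprc: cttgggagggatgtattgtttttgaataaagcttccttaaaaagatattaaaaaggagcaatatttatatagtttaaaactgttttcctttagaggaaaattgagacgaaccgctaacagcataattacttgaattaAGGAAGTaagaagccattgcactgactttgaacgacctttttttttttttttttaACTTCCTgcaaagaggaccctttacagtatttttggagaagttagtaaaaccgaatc
In *C1qb* the match began 53 bases before the start site, in *Mrc1* 211 bases before it, and *Ptprc* held a match on each strand, at 113 and 58 bases before the upstream one of its RefSeq starts. A match of letters is a description of the window and not a binding site.

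Libraries held between 18188636 and 38974885 counts. *Axin2*, a direct target of WNT signaling, was lower in C59 at 1 h (log2 fold change -0.19 ± 0.04, SE), 6 h (-1.97 ± 0.06) and 12 h (-1.45 ± 0.06). No difference passed the test at 18 h (-0.16 ± 0.09) or 24 h (-0.08 ± 0.07). Replicates of every group differed by more than sampling noise, most of all C59 18 h replicate 3 from its group, and edgeR's biological coefficient of variation, 12.5% in the fit of 18 h, ranged from 5.41% to 7.52% elsewhere. Sex was uneven early in the series. Y-linked transcripts were present in all 3 C59 libraries and in no DMSO library at 6 h, so sex and treatment cannot be told apart there, and at 1 h they summed to 36.96, 38.24 and 21.25 FPKM in C59 against 7.66, 9.03 and 0.05 in DMSO.

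The genes lie on 7 chromosomes of the mouse genome (GRCm38, called mm10 in the deposited files). *Csf1r* (ENSMUSG00000024621) lies on chromosome 18 from 61100598 to 61132149, *Cx3cr1* (ENSMUSG00000052336) on chromosome 9 from 119901616 to 120069879, and *Adgre1* (ENSMUSG00000004730) on chromosome 17 from 57358691 to 57483527. *Spi1* (ENSMUSG00000002111) lies on chromosome 2 from 91082390 to 91115756 and *Mrc1* (ENSMUSG00000026712) on the same chromosome from 14229392 to 14332057. *Ptprc* (ENSMUSG00000026395) occupies chromosome 1 from 138062861 to 138175708 and *Tyrobp* (ENSMUSG00000030579) chromosome 7 from 30413760 to 30417585. The C1q genes form a cluster of 18.7 kb on chromosome 4, all on the minus strand, with *C1qb* (ENSMUSG00000036905) from 136880129 to 136886187, *C1qc* (ENSMUSG00000036896) from 136889804 to 136893065 and *C1qa* (ENSMUSG00000036887) from 136895917 to 136898803. The strand of counting was not stated, and within its deposited locus *Csf1r* shares 873 bases of exon with *Hmgxb3* on the other strand, and *Cx3cr1* shares 78 bases with *Gm33858*. Reads of either gene of such a pair could not be told apart there. No other of the 10 genes shares exon sequence with a neighbour in GENCODE M21.

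All 10 genes had low levels in the limb bud. A library held between 10 counts (*Adgre1*, DMSO 1 h replicate 2) and 454 counts (*Csf1r*, DMSO 18 h replicate 2) of one of them. Counting error alone, as a coefficient of variation at the mean count, ran from 6.42% for *Csf1r* to 16.0% for *Ptprc*. Per transcript length, in FPKM (fragments scaled to length and library size) averaged over the 30 libraries, the order was *C1qb* (3.93), *C1qa* (3.07), *C1qc* (2.84), *Tyrobp* (2.69), *Csf1r* (2.49), *Cx3cr1* (1.99), *Mrc1* (1.29), *Spi1* (0.993), *Adgre1* (0.617) and *Ptprc* (0.356). Neighbours in this order often lay within each other's spread. *C1qc* and *Tyrobp* overlapped in all 10 groups, *C1qa* was above *C1qc* in every library of 1 group only, and *Tyrobp* above *Csf1r* likewise in 1 group. The clearest steps lay between *Cx3cr1* and *Mrc1*, with every library of the upper gene above the lower one in 8 of 10 groups, and between *Spi1* and *Adgre1*, with 7 of 10.

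**Figure D1:**
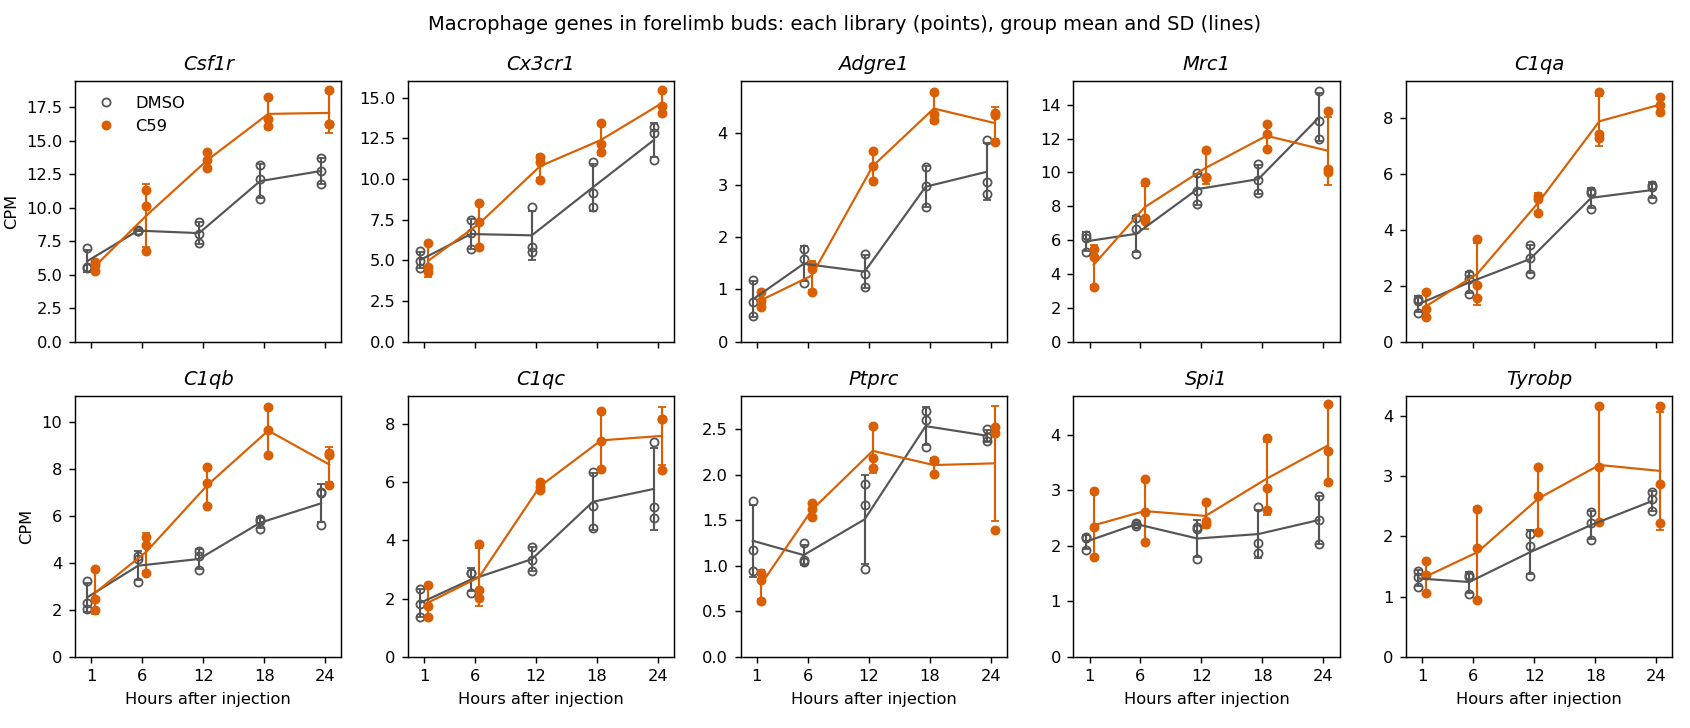
Level of each of the 10 macrophage genes in CPM (counts scaled to the normalised library size) against hours after injection. Open grey points are the 3 DMSO libraries and filled orange points the 3 C59 libraries of each time, lines join the group means and bars give the SD. C59 and DMSO points overlap for most genes at 1 and 6 h, and at 12 h the C59 points lie above the DMSO points for every gene but *Mrc1*.

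The levels of these genes climbed during the 24 h of normal development that the DMSO libraries cover. Of the 10 genes 9 were higher at 24 h than at 1 h, where 30.2% of all 13580 genes tested were higher, and 7 more than doubled, against 10.6% of genes (edgeR, adjusted p below 0.05 by Benjamini-Hochberg). The median log2 fold change of the 10 genes was 1.23 and that of all genes tested was near 0. In bulk tissue more cells of a type and more RNA per cell cannot be told apart, so these levels do not count macrophages.

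*C1qa* rose most. It stood at 1.03, 1.47 and 1.53 CPM in the DMSO libraries of 1 h and at 5.61, 5.12 and 5.55 CPM in those of 24 h, a log2 fold change of 2.001 ± 0.19 (SE; edgeR, adjusted p 7.02e-07). The groups were far apart, and the lowest library of 24 h held over 3 times the level of the highest at 1 h. *Adgre1* went from 0.759, 0.490 and 1.17 CPM to 2.83, 3.87 and 3.05 CPM (1.96 ± 0.29, adjusted p 3.87e-05). *C1qc* (1.63 ± 0.23) and *C1qb* (1.35 ± 0.19) followed, then the receptors *Cx3cr1* (1.30 ± 0.12), *Mrc1* (1.157 ± 0.12) and *Csf1r* (1.08 ± 0.12). *Tyrobp* (0.99 ± 0.22, adjusted p 0.00156) and *Ptprc* (0.91 ± 0.25, adjusted p 0.00674) were higher by less than a doubling.

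*Spi1* was the gene that did not pass. It measured 1.92, 2.16 and 2.13 CPM at 1 h and 2.47, 2.03 and 2.89 CPM at 24 h in DMSO, and the groups overlapped. The log2 fold change of 0.25 ± 0.22 did not pass the test (edgeR, adjusted p 0.341). The difference between *Spi1* and the other genes was not itself tested.

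In the C59 series all 10 genes were higher at 24 h than at 1 h, against 28.4% of all genes tested, and 9 of them by more than a doubling, against 11.4%. The median of the 10 was 1.57. *C1qa* went from 1.76, 1.18 and 0.894 CPM to 8.46, 8.22 and 8.77 CPM, a log2 fold change of 2.72 ± 0.21 (edgeR, adjusted p 9.45e-08). *Adgre1* rose by 2.42 ± 0.24, *C1qc* by 2.04 ± 0.21 and *Csf1r* by 1.61 ± 0.12. *Spi1* rose by 0.69 ± 0.23 (adjusted p 0.0210), and the adjusted p was 0.0561 without C59 1 h replicate 1, 0.0886 without C59 1 h replicate 3 and 0.0866 without C59 24 h replicate 3. The difference between the series over the whole interval was not tested.

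**Figure D2:**
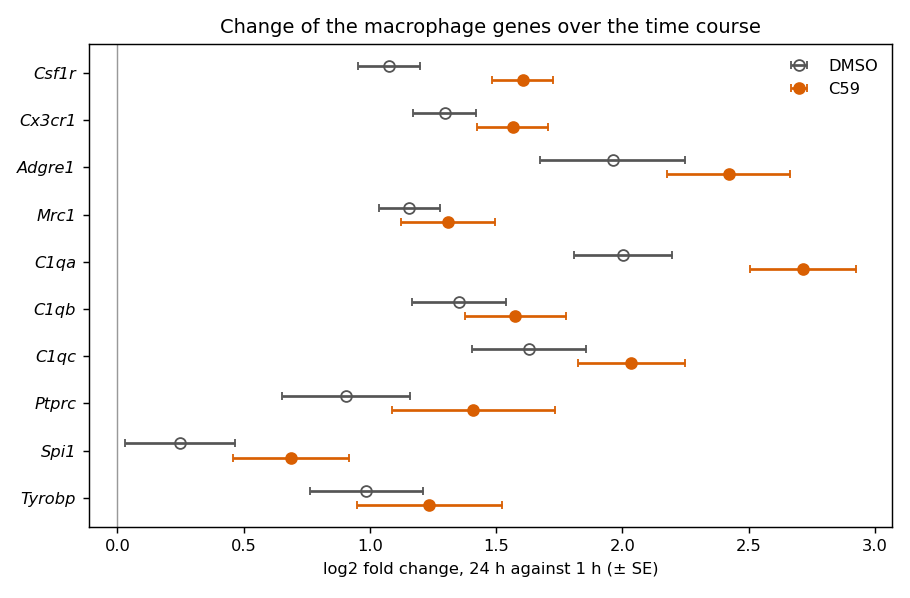
Log2 fold change from 1 h to 24 h after injection for each macrophage gene, with DMSO as open grey and C59 as filled orange points and bars of 1 SE. All points lie to the right of 0, from 0.25 for *Spi1* in DMSO to 2.72 for *C1qa* in C59.

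At 1 h and 6 h no difference between C59 and DMSO was detected in any of the 10 genes. None passed at an adjusted p below 0.05 and none at an unadjusted p below 0.05 in edgeR, and none passed in DESeq2, while 2.75% of all genes passed at 1 h and 19.6% at 6 h. The median log2 fold change of the 10 genes was -0.03 at 1 h and 0.18 at 6 h. *Csf1r* at 6 h measured 8.35, 8.28 and 8.26 CPM in DMSO and 10.1, 11.3 and 6.80 CPM in C59, so the C59 libraries lay on both sides of the controls. *C1qa* at 6 h measured 1.70, 2.24 and 2.42 CPM in DMSO and 2.03, 3.68 and 1.58 CPM in C59, again with overlap. *Ptprc* was the gene whose groups separated, in opposite directions. Its C59 libraries were below all DMSO libraries at 1 h (0.924, 0.616 and 0.842 against 0.938, 1.18 and 1.71 CPM) and above them at 6 h (1.68, 1.62 and 1.53 against 1.25, 1.04 and 1.06 CPM), with adjusted p of 0.319 and 0.198. Groups without overlap were found at 1 h for 11.6% of all genes in the lower direction and at 6 h for 17.5% in the higher direction. At 6 h *Axin2* had already fallen to 28.2 ± 1.51 CPM (mean and SD of 3 libraries), while DMSO stood at 109.999 ± 6.82 CPM.

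At 12 h the macrophage genes were higher in C59. All 10 log2 fold changes were above 0, from 0.19 for *Mrc1* to 1.33 for *Adgre1*, and 6 genes passed the test at an adjusted p below 0.05 in edgeR. These were *Csf1r*, *Cx3cr1*, *Adgre1* and the C1q genes. At this time 22% of all 13324 genes tested were higher by the same measure and 47.5% differed in either direction. The median of the 10 genes was 0.73 and that of all genes tested 0.02. In 9 of the 10, all but *Mrc1*, each C59 library was above each DMSO library, an arrangement that 27.2% of all genes showed.

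Among the surface receptors, *Csf1r* stood at 7.34, 8.96 and 8.03 CPM in the DMSO libraries and at 12.97, 13.5 and 14.2 CPM in the C59 libraries of 12 h. The lowest C59 library was well above the highest control, and the log2 fold change was 0.74 ± 0.11 (SE; edgeR, adjusted p 0.000344). *Cx3cr1* measured 8.29, 5.84 and 5.49 CPM in DMSO and 9.97, 11.3 and 11.04 CPM in C59 (0.72 ± 0.16, adjusted p 0.00390). DMSO 12 h replicate 1 lay closest to the C59 libraries here. *Adgre1* measured 1.05, 1.67 and 1.30 CPM in DMSO and 3.65, 3.07 and 3.36 CPM in C59. This was the only one of the 10 to more than double (1.33 ± 0.24, adjusted p 0.00108), as did 3.53% of all genes in the higher direction. *Mrc1* measured 8.93, 9.96 and 8.15 CPM in DMSO and 9.75, 11.3 and 9.70 CPM in C59. The groups overlapped and the log2 fold change of 0.19 ± 0.12 did not pass (adjusted p 0.228). That *Mrc1* differed in response from the other receptors was not tested.

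The C1q genes moved by nearly the same factor. *C1qa* measured 2.99, 3.45 and 2.43 CPM in DMSO and 5.12, 5.21 and 4.598 CPM in C59 at 12 h (log2 fold change 0.75 ± 0.18, edgeR, adjusted p 0.00636). *C1qb* measured 3.69, 4.29 and 4.53 CPM against 7.41, 8.07 and 6.44 CPM (0.81 ± 0.16, adjusted p 0.00168), and *C1qc* 3.34, 3.79 and 2.94 CPM against 5.83, 6.01 and 5.75 CPM (0.80 ± 0.16, adjusted p 0.00196). No library of one group reached into the other for any of the chains. The 3 log2 fold changes lay within 1 SE of each other. The promoter stretch printed for *C1qb* therefore belongs to a gene that rose, next to neighbours in the cluster that rose with it.

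The remaining genes, the transcription factor, the adaptor and the pan-leukocyte marker, lay higher in C59 without passing. *Spi1* measured 2.30, 2.34 and 1.75 CPM in DMSO and 2.78, 2.44 and 2.39 CPM in C59 (0.25 ± 0.22, edgeR, adjusted p 0.378). *Tyrobp* measured 1.85, 1.34 and 2.04 CPM against 2.67, 3.15 and 2.07 CPM (0.60 ± 0.26, adjusted p 0.0825), so that C59 12 h replicate 3 barely exceeded the highest control. Without that library *Tyrobp* passed as well, and 7 genes were called. *Ptprc* measured 1.90, 1.67 and 0.962 CPM against 2.07, 2.19 and 2.53 CPM (0.58 ± 0.28, adjusted p 0.112). These were among the genes with the fewest counts, and a difference of the size seen in *Csf1r* lay within 2 SE of the estimate for *Ptprc* and *Tyrobp*.

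**Figure D3:**
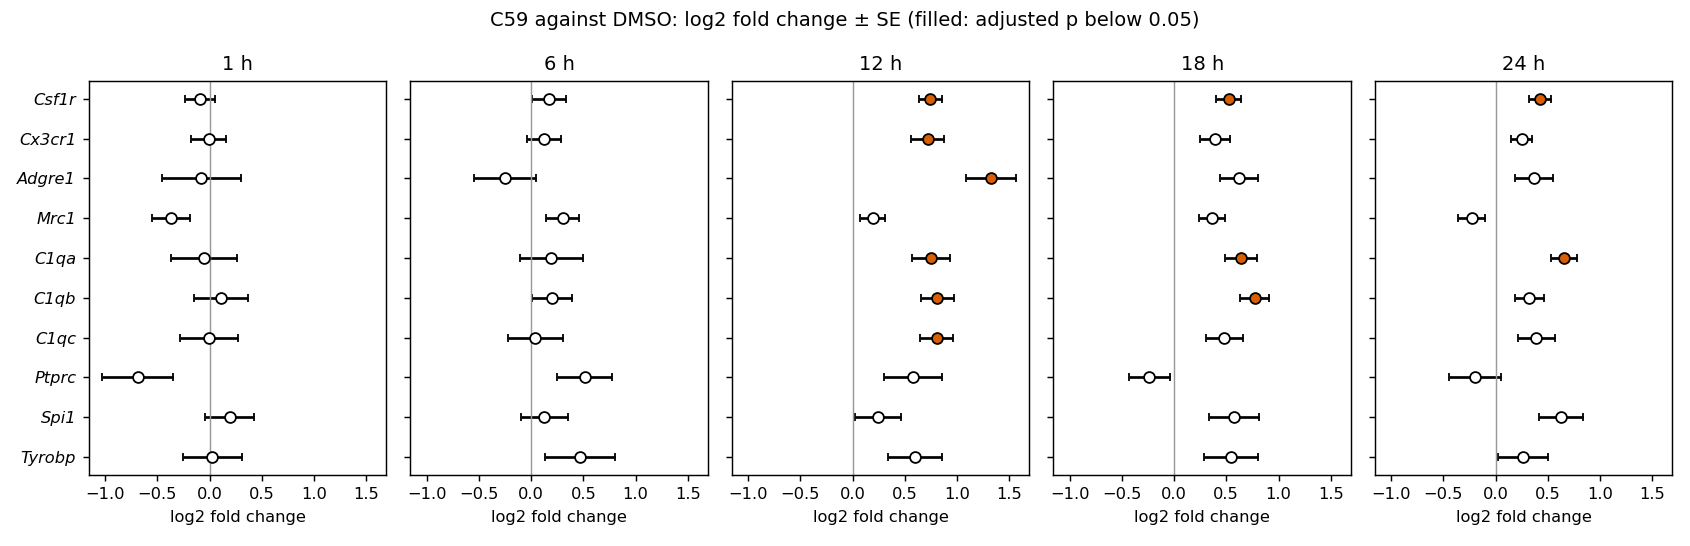
Log2 fold change of C59 against DMSO for each macrophage gene, 1 panel per time after injection, with bars of 1 SE. Filled points have an adjusted p below 0.05 in edgeR. The panels of 1 and 6 h hold no filled point, that of 12 h holds 6, that of 18 h holds 3 and that of 24 h holds 2.

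At 18 h, when *Axin2* no longer differed detectably, 3 of the 10 genes were higher in C59, where 3.46% of all 13413 genes were. *Csf1r* measured 10.7, 12.1 and 13.2 CPM in DMSO and 16.6, 16.1 and 18.3 CPM in C59 (log2 fold change 0.52 ± 0.12, edgeR, adjusted p 0.0378). *C1qb* measured 5.79, 5.89 and 5.46 CPM against 9.68, 8.59 and 10.6 CPM (0.77 ± 0.14, adjusted p 0.0148). *C1qa* measured 5.30, 4.74 and 5.40 CPM against 7.44, 7.29 and 8.92 CPM (0.64 ± 0.15, adjusted p 0.0381). In these genes the groups were separate. Calls at 18 h rested on few libraries, since no gene passed without DMSO 18 h replicate 1, 2 or 3, and *C1qb* alone passed without C59 18 h replicate 1 or 2. With the replicate number as a block *C1qb* passed (edgeR, adjusted p 0.0462), and *Csf1r* (0.0783) and *C1qa* (0.0797) did not. Without C59 18 h replicate 3, the library that stood apart, *Csf1r*, *C1qa* and *C1qb* passed, and in limma on FPKM *Csf1r* did not. *Adgre1* (0.62 ± 0.18, adjusted p 0.0717), *C1qc* (0.48 ± 0.18), *Cx3cr1* (0.39 ± 0.14) and *Mrc1* (0.36 ± 0.12) did not pass, although each C59 library was above each control in them. Such an arrangement was found for 7 of the 10 genes and for 15% of all genes. *Ptprc* was arranged the other way, with 2.60, 2.30 and 2.701 CPM in DMSO and 2.01, 2.15 and 2.16 CPM in C59 (-0.24 ± 0.20, adjusted p 0.492), as were 19.1% of all genes.

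At 24 h *Csf1r* and *C1qa* were higher in C59, 2 of the 10 genes against 2.88% of all genes. In 5 of the 10 the C59 libraries were all above the controls, as in 12.8% of all genes. *C1qa* measured 5.61, 5.12 and 5.55 CPM in DMSO and 8.46, 8.22 and 8.77 CPM in C59 (log2 fold change 0.65 ± 0.13, edgeR, adjusted p 0.0102). The spread inside either group was small beside the gap. *Csf1r* measured 11.8, 13.7 and 12.8 CPM against 18.8, 16.3 and 16.2 CPM (0.43 ± 0.10, adjusted p 0.0312). The *Csf1r* call was lost without any one DMSO library of 24 h (adjusted p 0.142, 0.0554 and 0.0994 for replicates 1, 2 and 3), without the first C59 library (0.0602), and in limma on log2(FPKM + 1) (0.152). *Mrc1* (-0.23 ± 0.13) and *Ptprc* (-0.20 ± 0.25) lay on the lower side without passing. *Spi1* measured 2.47, 2.03 and 2.89 CPM in DMSO and 3.71, 3.14 and 4.55 CPM in C59, groups that did not overlap, but its log2 fold change of 0.62 ± 0.21 did not pass (adjusted p 0.1001). The median of the 10 genes was 0.53 at 18 h and 0.34 at 24 h, and near 0 for all genes at both times.

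Whether the response itself changed with time was tested with interaction contrasts. From 6 h to 12 h the effect of C59 on *Adgre1* changed by 1.58 ± 0.37 (difference of log2 fold changes, edgeR, adjusted p 0.00780), 1 of the 10 genes, against 6.59% of all genes that changed upwards. At 6 h only the C59 libraries held Y-linked transcripts, so in this first interval sex and treatment cannot be told apart. The effect of C59 on *Adgre1* changed by -0.97 ± 0.29 from 12 h to 24 h (edgeR, adjusted p 0.0144), where 17.7% of all genes changed downwards. In the second interval *Adgre1* did not pass without DMSO 12 h replicate 1 (adjusted p 0.0516), nor in limma with either pseudocount for FPKM (0.101 with 1 and 0.0553 with 0.1). The other 9 genes did not pass in either interval, and 4 of them had an unadjusted p below 0.05 in each. Without C59 6 h replicate 2 *Csf1r* and *C1qc* also passed from 6 h to 12 h, and without DMSO 12 h replicate 1 *Cx3cr1* passed in both intervals.

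Because the levels rise with age, the C59 libraries of 12 h were set beside the older controls, as values without a test. The mean of *Csf1r* in C59 at 12 h was 1.13 times that in DMSO at 18 h and 1.06 times that at 24 h. For *Cx3cr1* the ratios were 1.14 and 0.870, and for *Adgre1* 1.13 and 1.03. Over the 10 genes the ratios ran from 0.893 (*Ptprc*) to 1.28 (*C1qb*) against 18 h, and from 0.773 (*Mrc1*) to 1.12 (*C1qb*) against 24 h.

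The share of C1q transcripts in the counts of the 10 genes together was lowest at 1 h and highest at 18 h in DMSO. It was 20.2% ± 1.91 (SD, n = 3) in the DMSO libraries of 1 h and 22.0% ± 2.67 in the C59 libraries. At 6 h C59 lay on the lower side (23.0% ± 2.15, with 23.9% ± 2.19 in DMSO) and the groups overlapped. It was 25.7% ± 1.39 in DMSO and 28.5% ± 1.31 in C59 at 12 h, 28.3% ± 1.23 and 31.4% ± 0.854 at 18 h, and 26.5% ± 1.91 and 30.1% ± 0.531 at 24 h. At 12, 18 and 24 h every C59 library lay above every DMSO library, with 27.1% as the lowest C59 share at 12 h and 26.6% as the highest DMSO share. These shares were not tested.

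A wider list of 25 macrophage genes also held genes that rose at 12 h. Of its 19 genes tested, 9 were higher, none was lower, and 4 more than doubled, with a median log2 fold change of 0.54. Of all genes 22% were higher and 3.53% more than doubled. The genes that more than doubled were *Fcgr1* (1.47 ± 0.31, edgeR, adjusted p 0.00273), the high-affinity receptor for IgG, *Trem2* (1.41 ± 0.45, adjusted p 0.0245), a lipid receptor that signals through the product of *Tyrobp*, *Maf* (1.23 ± 0.12, adjusted p 2.10e-05), a transcription factor of macrophages and also of other tissues, and *Fcer1g* (1.12 ± 0.24, adjusted p 0.00311), the shared signaling chain of Fc receptors. *Fcgr1* measured 0.649, 0.891 and 0.905 CPM in DMSO and 1.91, 1.89 and 2.94 CPM in C59. *Fcer1g* measured 1.10, 1.67 and 1.19 CPM against 2.89, 2.90 and 2.80 CPM. In both genes the C59 libraries were all above the controls. *F13a1*, which encodes a subunit of coagulation factor XIII, gave the smallest value (0.02 ± 0.15). At 18 h 3 genes of this list were higher (*Fcgr3*, *Stab1* and *C3ar1*), and at 24 h 1 was (*Ctss*), of 20 and 21 tested, where 3.46% and 2.88% of all genes were higher. *Stab1* and *Mertk* are also made by endothelial and other cells. Some genes of mature resident macrophages were scarce. *Cd163* was counted in 10 of 30 libraries at up to 0.312 CPM and *Folr2* in 19 at up to 0.210 CPM. *Timd4*, *Siglec1* and *Ms4a7* also averaged below 0.2 CPM, whereas *Mrc1*, one of the 10 genes, averaged 13.3 CPM in DMSO at 24 h.

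Of the ligands and partners of the 10 genes, 2 of 8 tested were higher at 12 h and none was lower, a share near the 22% of all genes. *Csf1* measured 9.03, 9.85 and 6.90 CPM in DMSO and 9.64, 10.004 and 10.4 CPM in C59 at 12 h (log2 fold change 0.22 ± 0.14, edgeR, adjusted p 0.209). *Il34*, the other ligand of the same receptor, averaged 0.0785 CPM over all libraries and was below the filter. *Cx3cl1*, the ligand of the fractalkine receptor, gave 0.33 ± 0.17 (adjusted p 0.143). Of the complement genes acting with C1q, the protease gene *C1s1* gave 1.11 ± 0.44 (adjusted p 0.0578), *C1ra*, *C3* and *C4b* were below the filter, and *Serping1*, the inhibitor of C1, rose by 0.91 ± 0.14 (adjusted p 0.000322). *Serping1* measured 7.34, 6.74 and 5.49 CPM in DMSO and 13.3, 11.1 and 12.6 CPM in C59, without overlap. Of the partners of DAP12, *Syk*, the kinase it recruits, gave 0.35 ± 0.14 (adjusted p 0.0627) and *Hcst* was below the filter. Among the transcription factors *Runx1* rose (0.55 ± 0.14, adjusted p 0.00680), whereas *Cebpb* (0.24 ± 0.17) and *Cebpa* (-0.04 ± 0.20) did not pass.

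Genes that have been linked to the uptake of dead cells, most of which mesenchymal and other cells also use, were read next. A place on this list does not show that a gene acts in uptake here. At 12 h 5 of 12 were higher and 1 was lower, where 22% of all genes were higher and 25.5% lower. *Megf10*, an engulfment receptor also known from muscle precursors, rose by 1.40 ± 0.22 (edgeR, adjusted p 0.000407) and *Abca1*, a lipid exporter, by 1.197 ± 0.13 (adjusted p 3.16e-05). *Axl* (0.58 ± 0.09), *Lrp1* (0.54 ± 0.16) and *Mfge8* (0.32 ± 0.06) rose by less. *Jmjd6* fell by 0.41 on the log2 scale (SE 0.06, adjusted p 0.000345). Genes shared by all leukocytes were mixed, with 3 of 10 higher and 1 lower, the first near the share of all genes. *Laptm5* rose by 0.68 ± 0.09 (adjusted p 0.000169), *Lcp1* by 0.37 ± 0.09 and *Rac2* by 0.56 ± 0.21, the last close to the threshold (adjusted p 0.0499). *Coro1a* fell by 0.36 (SE 0.11, adjusted p 0.0156), and *Cd53* gave the highest value of the list without passing (0.70 ± 0.32, adjusted p 0.0938).

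**Figure D4:**
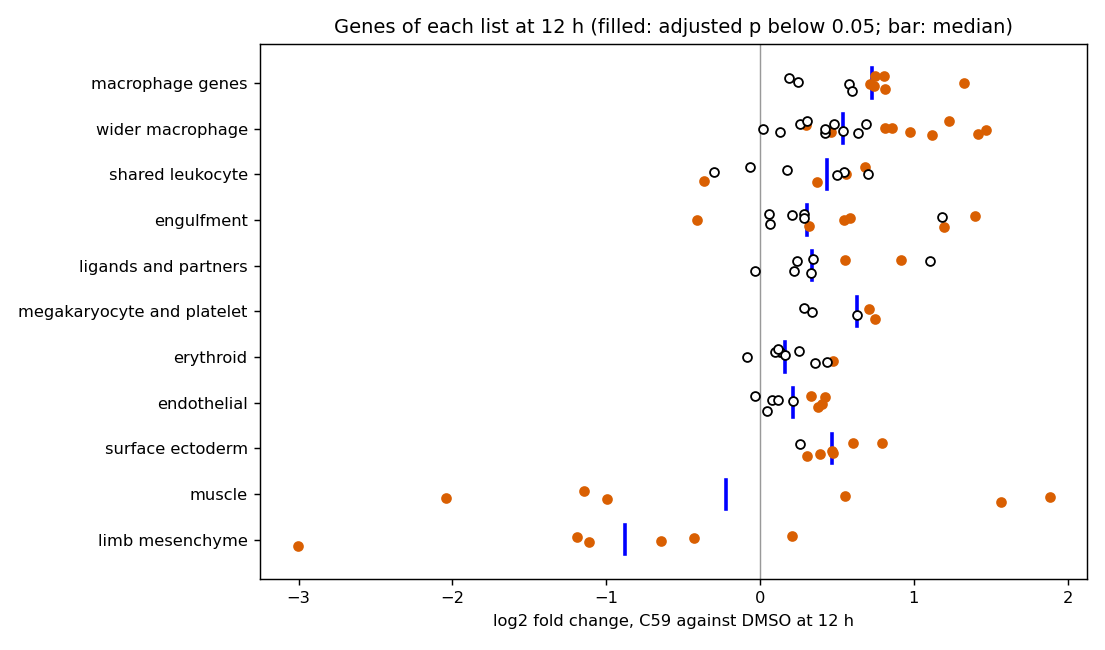
Log2 fold change of C59 against DMSO at 12 h for each tested gene of 11 lists, with filled points for an adjusted p below 0.05 in edgeR and a blue bar at the list's median. The macrophage genes and the wider list lie to the right of 0, as do surface ectoderm genes, whereas 5 of 6 limb mesenchyme genes lie to the left.

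Markers of other cells also moved at 12 h, and their part in the result was not tested. The summed CPM of the 10 genes was 37.6 to 43.3 in DMSO and 62.0 to 66.4 in C59, a ratio of means of 1.55. Limb mesenchyme genes, whose cells form the bulk of the bud, summed to 1834 to 1931 CPM in DMSO and 1201 to 1261 CPM in C59 (ratio 0.658). Of those 6 genes 5 were lower, against 25.5% of all genes, with *Msx1* (-3.01 ± 0.11), *Twist1* (-1.19 ± 0.05) and *Prrx2* (-1.11 ± 0.06) by more than a halving, while *Prrx1* was the most abundant and *Tbx5* was higher. CPM measures a gene against the rest of a library, and a sum of marker genes does not count the cells of a type. Whether the share of mesenchyme cells changed was not tested.

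For the counts that follow, 22% of all 13324 genes tested were higher at 12 h. Surface ectoderm genes were higher in 6 of 7 (ratio of sums 1.47, with 259 to 290 CPM in DMSO and 362 to 486 CPM in C59), led in level by *Krt5* (0.79 ± 0.10). Endothelial genes were higher in 4 of 9 (ratio 1.23, 383 to 422 against 468 to 526 CPM), with *Cdh5* most abundant (0.41 ± 0.06). Erythroid genes, a measure of blood in the bud, overlapped between groups (5372 to 7783 against 6758 to 9652 CPM, ratio 1.22), and the most abundant, *Hbb-y*, did not pass (0.36 ± 0.15, adjusted p 0.0675). Megakaryocyte and platelet genes were higher in 2 of 5 tested, *Pf4* (0.71 ± 0.15) and *Itga2b* (0.75 ± 0.12), with sums of 20.9 to 23.3 against 29.5 to 36.6 CPM, and *Gp1bb* had no count. The ratio of the wider macrophage list was 1.42, that of the megakaryocyte and platelet list 1.51, and those of the muscle, neutrophil and lymphoid lists 1.69, 1.74 and 1.92. Both macrophage ratios thus lay inside the range of the other lists, but few genes set its upper end. The lymphoid ratio came mainly from *Rag1* (means of 7.27 CPM in C59 and 3.09 CPM in DMSO), while *Cd79b* was lower (0.560 and 0.903 CPM). The neutrophil ratio came mainly from *Prtn3* (7.67 and 3.83 CPM). The muscle ratio came mainly from *Actc1* (83.5 and 22.8 CPM) and *Myog* (69.7 and 23.6 CPM), while *Pax3*, *Lbx1* and *Myf5* were lower. Differences between the ratios were not tested.

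Other lists also moved beside the 10 genes at the later times. At 18 h the ratio of summed CPM in C59 over DMSO was 1.39 for the 10 genes and 1.23 for the wider macrophage list, with 1.33 for surface ectoderm, 1.39 for megakaryocytes and platelets and 1.55 for neutrophil genes. At 24 h it was 1.204 for the 10 genes and 0.967 for the wider macrophage list, with 1.207 for surface ectoderm and 1.26 for muscle. The muscle ratio came from *Actc1*, with a mean of 342 CPM in C59 and 204 CPM in DMSO at 24 h. The means of *Pax3*, *Lbx1*, *Myf5*, *Myod1* (53.8 and 70.2 CPM) and *Myog* were lower in C59. The part of the cells of these lists in the calls at 18 h and 24 h was not tested.

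Most genes of other white blood cells were near 0, but some were not, *Prtn3*, *Rag1*, *Mpo*, *Cd79b* and *Plac8* among them. The lymphoid gene *Cd79b* had a mean of 0.903 CPM in DMSO and 0.560 CPM in C59 at 12 h, with overlap. Of 8 neutrophil genes 6 averaged below 0.2 CPM, *S100a8* and *S100a9* among them, and of the remaining genes *Prtn3* (0.99 ± 0.21, adjusted p 0.00272) passed and *Mpo* (0.35 ± 0.32) did not. Both are also transcribed by immature myeloid cells. Of 4 mast cell genes none was tested at 12 h, and *Mcpt4* had no count. *Cd3e* had 1 count in 30 libraries, and 5 of 8 lymphoid genes averaged below 0.2 CPM, while *Rag1*, a recombinase gene used as a lymphoid marker, was at 4.29 CPM on average and more than doubled in C59 (1.23 ± 0.20, adjusted p 0.000559). Monocyte genes gave sums of 1.13 to 1.35 CPM in DMSO and 0.981 to 1.75 CPM in C59, with *Ly6c2* counted in 8 of 30 libraries. Muscle genes split, with *Actc1* (1.88 ± 0.39) and *Myog* (1.56 ± 0.23) higher and *Pax3* (-2.04 ± 0.18) and *Lbx1* (-1.15 ± 0.14) lower by more than the fold threshold. Progenitor genes split as well, with *Kit* higher (0.35 ± 0.09) and *Myb* lower (-0.47 ± 0.11), and *Cd34* most abundant (-0.14 ± 0.07, not passing).

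Over normal development the lists were compared in the same way. From 1 h to 24 h in DMSO 13 of 20 wider macrophage genes tested were higher and 1 was lower (median 0.85), while 30.2% of all genes were higher and 29.2% lower. Endothelial genes were lower in 5 of 9 and higher in none, and erythroid genes lower in 5 and higher in 3 of 9. Muscle genes had a median of 2.24 but split. In mean CPM *Pax3* fell from 29.8 to 5.45 and *Lbx1* from 35.6 to 20.4. *Myf5* went from 8.11 to 12.4, *Myod1* from 3.66 to 70.2, *Myog* from 6.59 to 96.0 and *Actc1* from 7.12 to 204.

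The 10 genes were compared with each other over the 30 libraries as a description, since the libraries share developmental age. Pearson correlations of log2 CPM had a median of 0.836 over the 45 pairs, between 0.318 and 0.962. After the mean of each group was subtracted, the median was 0.282, between -0.325 and 0.622, with 39 of 45 pairs above 0. Most of the likeness among the genes thus lay between groups and little of it among replicates, where counting error is large.

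Genes with a profile over the libraries like that of the 10 genes together were then sought. Among 12531 genes of at least 1 CPM on average, the 10 with the highest correlation over the 30 libraries were *Tmem176b* (r = 0.968), *Adamts15*, *Atp9a*, *Nkx3-2*, *Fzd8*, *Ltbp3*, *Erbb3*, *Islr*, *Myog* and *Boc* (r = 0.958), and none of them was on the wider macrophage list. With group means subtracted the 10 were *Gls2* (r = 0.739), *Itgal*, *Dipk1c*, *Kcnk13*, *Pcdh1*, *Tnnt1*, *Snx33*, *Selenon*, *Tnnt3* and *Prrg4* (r = 0.692). None was shared between the lists. Of the first list 5 genes remained with log2(FPKM + 1) in place of log2 CPM and 5 with rank correlation, and of the second 3 remained with log2(FPKM + 1).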

How the data were processed

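Forelimb buds of 30 mouse embryos were profiled by polyA RNA-sequencing (paired reads on a NovaSeq6000). The authors trimmed reads with Cutadapt 1.16, mapped them with STAR 2.7.0e to mm10 with a custom annotation and deposited the raw counts per gene that STAR wrote, autosomal genes only. They also deposited FPKM values made with Cufflinks 2.2.1, set to unstranded libraries and correcting for multi-reads and sequence bias but not for effective length. Replicates were not pooled, and groups were taken from the labels.

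Counts of protein-coding genes by GENCODE M21 (50628 of 50833 counted genes matched, 96.1% of counts protein-coding) were tested by the quasi-likelihood method of edgeR 4.0.16 (R 4.3.3), each comparison on its own libraries, after TMM normalization and a low-count filter (filterByExpr, at least 10 counts and a total of 15, no covariates, two-sided, Benjamini-Hochberg adjustment over all genes tested). Genes were called at an adjusted p below 0.05, and "more than doubled" adds a log2 fold change above 1. The SE was derived from the F statistic. CPM are counts scaled to TMM library size over the 30 libraries. FPKM were used for levels between genes, and for alternatives in limma 3.58.1 and in the likeness of profiles, and DESeq2 1.42.0 was another alternative. The edgeR step was checked on simulated data. Labels name replicates without naming litters, and p-values measure the spread between them. Replicate numbers did not pair the samples. Intervals by counting cover counting error only.

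The 10 genes, the lists, the alternatives and the tests were chosen with earlier results of these data known. Named genes were the 10 genes, all ligands and partners, genes of the wider macrophage, leukocyte and engulfment lists that passed both thresholds or were extreme at 12 h or without counts, and the most abundant and the doubled or halved markers of other cells. Others were named to complete a count after their values were seen. Promoter windows came from RefSeq. No genome browser tracks or protein sequences were used.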

Additional observations from a re-analysis of the deposited data

Results flagged for a closer look

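The effect of C59 on *Adgre1* differed between time points in a test of the difference itself. It changed by 1.58 on the log2 scale from 6 h, when C59 and DMSO overlapped, to 12 h, when all C59 libraries were above all controls (1.33 ± 0.24). It changed by -0.97 from 12 h to 24 h (0.36 ± 0.18), an interval in which 17.7% of all genes changed downwards. This second change did not pass in edgeR without DMSO 12 h replicate 1 (adjusted p 0.0516) or in limma on FPKM with a pseudocount of 1 (0.101) or 0.1 (0.0553). Both contrasts share the libraries of 12 h. The first also uses the libraries of 6 h, where sex and treatment cannot be told apart. No explanation was tested.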

How the results depend on the processing

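Results kept their direction and side of the threshold in most alternatives. The 6 genes called at 12 h were called in each of 16 alternatives, and all 170 fold changes of the 10 genes there were above 0. The counts at 1 and 6 h (0), from 1 to 24 h in DMSO and in C59 were within 1.5 times in every alternative. At 18 h the count of 3 became 5 with all 30 libraries in the fit, 1 with the replicate block, and 0 to 3 without single libraries (0 without any DMSO 18 h replicate, 1 without C59 18 h replicate 1 or 2). At 24 h the count of 2 became 1 in limma on FPKM with a pseudocount of 1 or 0.1, and 1 to 2 without single libraries (1 without any DMSO 24 h replicate or C59 24 h replicate 1). The interaction count of 1 from 6 h to 12 h became 2 in limma on log2(FPKM + 1) and ran from 1 to 3 without single libraries (3 without C59 6 h replicate 2, 2 without DMSO 12 h replicate 1). That from 12 h to 24 h became 3 with upper-quartile factors, 2 in DESeq2 and 2 in limma on either FPKM scale, and ran from 1 to 2 without single libraries (2 without C59 12 h replicate 3, DMSO 24 h replicate 1 or 3, or C59 24 h replicate 1 or 3). The cause of these moves was not tested. At 24 h, without single libraries, the log2 fold change of *Tyrobp* ran from -0.017 (without C59 24 h replicate 1) to 0.45 and that of *Ptprc* from -0.33 to 0.044 (without C59 24 h replicate 2), so both took the other sign once. The replicate number as a block changed no other call, and same-numbered libraries correlated between -0.133 and 0.103, so they share only a number. With 10 to 454 counts per gene and library, depth limits what could be seen for *Ptprc*, *Tyrobp*, *Spi1* and *Adgre1*.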
